A study of Mus musculus with 30 samples.

Results

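Semaphorins, plexins and neuropilins are a family of guidance ligands and their receptors, and their transcripts were followed in RNA sequencing of mouse Achilles tendon and calcaneus, the bone of the heel where this tendon is anchored. Members were set by gene symbol, in a family chosen with earlier results of these data known. Of the 55426 genes in the count table, 31 carry a name of the Sema3 to Sema7, Plxna to Plxnd, Nrp1 or Nrp2 series. They comprise 20 semaphorins, 9 plexins and 2 neuropilins, and all 31 passed the filter on low counts in each tissue. The 30 samples, each labelled with the genotype Acta1,Ai32, fell into 10 groups of 3: stimulated tendon and bone at day 5 and at day 12, unstimulated tendon and bone at the same days, and naive tendon and bone at day 0. Ai32 is an allele for a light-gated cation channel and Acta1 encodes skeletal muscle actin, and the study asked what optogenetic loading of muscle does to both tissues. All groups, naive ones included, carry the same genotype label, which does not say what form of the Acta1 allele was used, and the labels give neither age nor sex nor whether replicates were separate animals. P-values therefore reflect nothing beyond the variation among the samples at hand, and that variation may be technical.

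Semaphorins signal through plexins, whose cytoplasmic part acts on small GTPases and thereby on the actin cytoskeleton and on adhesion. Secreted class 3 semaphorins mostly need a neuropilin as the ligand-binding partner of an A-type plexin, whereas membrane-bound classes 4 to 7 bind plexins directly. In the skeleton the family is known for Sema3a, which restrains osteoclasts and favours osteoblasts, and for Sema4d, an osteoclast product that acts on osteoblasts through Plxnb1. In bulk tissue, fewer cells of a type and less RNA per cell cannot be told apart.

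Samples held 24488997 to 44566322 gene counts in tendon (median 30334424) and 19255983 to 35035536 in bone (median 23378911). Samples 1 and 2 of unstimulated bone at day 5 resembled one another more than the members of any other within-group pair, with a mean chi-square per gene of 6.28, against 18.8 to 208 in the other 29 pairs. This is more than counting noise alone gives, but they were treated as possible repeats, summed and counted as 1 library, which left 2 libraries in that group. Bone markers separated the labelled tissues and tendon markers did so less: the 10 tendon fibroblast markers, all detected in both, summed to 3289 to 5517 CPM in naive tendon (CPM being counts scaled by library size) and 2550 to 2849 CPM in naive bone, and at day 12 to more in every bone library (4238 to 7377 CPM) than in any tendon library (986 to 2921 CPM). All 11 osteoblast markers were detected in both tissues, at 27.3 to 80.0 CPM in naive tendon and 3789 to 5058 CPM in naive bone. Muscle fibre genes took a large part of the tendon libraries, 119177 to 166851 CPM in naive tendon, and 110 to 11917 CPM in naive bone. Unstimulated tendon sample 3 at day 5 stood apart through Schwann cell markers, 3165 CPM against 115 and 157 CPM in the other samples of its group, naive bone sample 3 through muscle markers, 110 CPM against 11917 and 6854 CPM, and stimulated tendon sample 3 at day 12 through muscle progenitor markers, 2402 CPM against 331 and 273 CPM.

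Naive tendon was rich in Sema6c, Sema3b, Sema3c and Nrp1, and naive bone in Nrp2, Sema4a, Sema4b, Sema7a and Plxnb1. With edgeR's quasi-likelihood test and Benjamini-Hochberg adjustment over all genes (threshold 0.05), 17 of the 31 members differed between naive tendon and naive bone, 6 higher and 11 lower in tendon, where 68.4% of the 19845 genes tested differed (33.3% higher and 35.0% lower). The members' median log2 fold change was -0.25, against -0.06 over all genes. All 17 calls held without any 1 of the 6 naive libraries. Per kb of exon, the leading members in naive tendon were Sema6c with 31.5 ± 2.08, Sema3b with 23.1 ± 6.51, Plxnd1 with 19.7 ± 2.34 and Sema4d with 12.4 ± 1.92 CPM per kb (mean ± SD, n = 3). In naive bone they were Plxnd1 with 24.1 ± 1.125, Sema7a with 21.97 ± 3.52, Plxnb2 with 18.8 ± 0.391 and Nrp2 with 18.7 ± 1.53 CPM per kb (n = 3). In tendon the libraries of Sema6c and Sema3b overlapped in level per kb, as did those of Sema3b and Plxnd1, and in bone those of Plxnd1 and Sema7a and those of Plxnb2 and Nrp2, so that these neighbours did not differ in level beyond their spread. The lowest levels were those of Sema4f in tendon (0.121 ± 0.0181 CPM per kb) and Sema5b in bone (0.0669 ± 0.0420 CPM per kb).

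**Figure D1:**
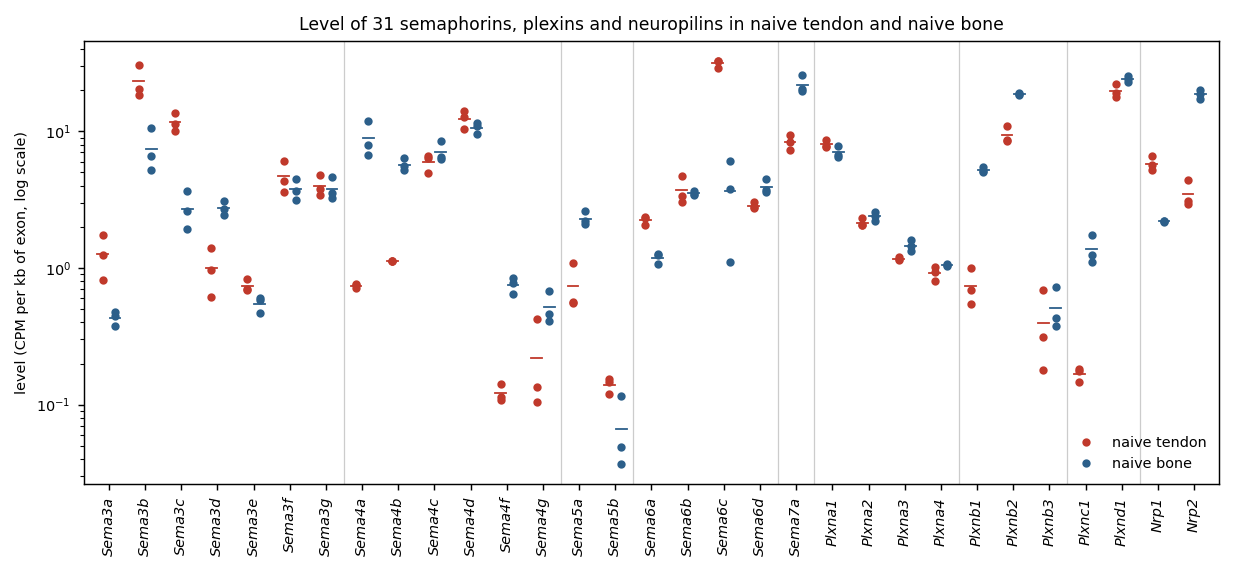
Level of each of the 31 members in CPM per kb of exon (log scale) in the 3 naive tendon libraries (red) and the 3 naive bone libraries (blue), with a bar at each mean; grey lines part the classes. Sema6c, Sema3b and Sema3c lie higher in tendon, and Sema4a, Sema4b, Plxnb1, Plxnc1 and Nrp2 higher in bone.

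Optogenetic stimulation moved no member past the threshold in any of the 4 comparisons with unstimulated tissue by edgeR. For stimulated against unstimulated tendon, 0 of 31 passed at day 5, where 0.0585% of the 17108 genes tested passed, and 0 of 31 at day 12, where 0.345% passed. For bone, 0 of 31 passed at day 5, where 0% of the 18851 genes tested passed, and 0 of 31 at day 12, where 0.0371% passed. At an unadjusted p under 0.05 there were 4 and 1 members in tendon at days 5 and 12, and 5 and 7 in bone. Over all genes tested there were 1417 and 1916 of 17108 in tendon and 1522 and 2757 of 18851 in bone. DESeq2 called Plxna2 in tendon at day 12 and Sema3d and Sema3e in bone at day 12, and no member at day 5. Over all genes DESeq2 called 129 and 367 of 30654 in tendon at days 5 and 12, and 45 and 427 of 33291 in bone. DESeq2 was run without the filter on low counts, here and below. Its totals of genes therefore include scarce ones, whereas all 31 members passed that filter, so the shares are not alike.

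Against naive tissue, unstimulated tendon at day 5 had 0 of 31 members past the threshold, where 0.0351% of all genes passed. At an unadjusted p under 0.05 there were 5 members, beside 1870 of 17108 genes. DESeq2 called Plxna3 there, beside 109 of 30654 genes. Unstimulated tendon at day 12 had 6, with 1 higher and 5 lower, a share of 19.4% beside 18.8% of all genes (8.17% higher and 10.6% lower). Unstimulated bone had 1 member past the threshold at day 5, where 0.435% of genes passed, and 12 at day 12, with 4 higher and 8 lower, a share of 38.7% beside 21.8% of all genes (10.1% higher and 11.7% lower). The members' median log2 fold change at day 12 was -0.28 in tendon, against -0.03 over all genes, and -0.07 in bone, against 0.03 over all genes. The stimulated groups share their naive libraries with these comparisons. Stimulated tendon had 1 member past the threshold at day 5 (2.29% of genes) and 5 at day 12 (24.4% of genes). Stimulated bone had 0 at day 5 (0.228% of genes) and 4 at day 12 (4.54% of genes). At day 5 it had 13 members at an unadjusted p under 0.05, beside 3069 of 18851 genes. DESeq2 called 5 members there, beside 685 of 33291 genes, scarce ones included.

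These counts depended on single libraries. For unstimulated tendon at day 12, 1 member passed without naive sample 3 and 0 without unstimulated sample 2. Unstimulated bone at day 12 had 6 members without naive sample 2, naive sample 3 or unstimulated sample 1, and 7 without unstimulated sample 3. Stimulated tendon at day 12 had 2 members without naive sample 3 or stimulated sample 1, 9 without stimulated sample 2, and 10 without unstimulated sample 3 of day 5, which enters only the estimate of spread. Stimulated tendon at day 5 had 0 without any naive sample or stimulated sample 1 or 2, 2 without stimulated sample 3 and 3 without unstimulated sample 3. Stimulated bone at day 12 had 1 member without naive sample 2 or stimulated sample 2, 2 without stimulated sample 3 and 0 without naive sample 3. Fitted on only the 2 groups compared, unstimulated tendon at day 12 had 13 members and stimulated bone at day 12 had 0. The share of all genes that passed in these refits is not given. Whether the shifts are particular to the members can therefore not be read from these counts.

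Among the secreted class 3 ligands, most of which act through neuropilins, Sema3a, Sema3c and Sema3e rose in unstimulated bone at day 12, while Sema3b, Sema3c and Sema3d fell in unstimulated tendon at the same day. Of the 7 members of the class, 3 rose and 0 fell in bone, where 10.1% of all genes rose and 11.7% fell, and 0 rose and 3 fell in tendon, where 8.17% rose and 10.6% fell. The tendon falls of Sema3b and Sema3d also ended without the filter on low counts. Sema3a, Sema3c, Sema3d and Sema3e lie on mouse chromosome 5 (GRCm38), all on the plus strand, at chr5:13125414-13602565, chr5:17574281-17730268, chr5:12383385-12588948 and chr5:14025276-14256689. Since Sema3a, Sema3c and Sema3e rose in unstimulated bone and Sema3d did not pass there, the 250 bases before their RefSeq start sites (GRCm38.p6, plus strand) are shown, from chr5:13396534-13396783, chr5:17574566-17574815, chr5:12382916-12383165 and chr5:14025026-14025275. Capitals mark the E-box CANNTG, the letters bound by basic helix-loop-helix factors such as scleraxis, and TGTGGT, the core bound by RUNX factors.
Sema3a: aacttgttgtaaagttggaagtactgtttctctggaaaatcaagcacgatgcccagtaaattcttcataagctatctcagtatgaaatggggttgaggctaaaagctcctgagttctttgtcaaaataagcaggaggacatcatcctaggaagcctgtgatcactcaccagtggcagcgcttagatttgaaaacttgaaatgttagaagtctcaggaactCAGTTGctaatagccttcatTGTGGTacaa
Sema3c: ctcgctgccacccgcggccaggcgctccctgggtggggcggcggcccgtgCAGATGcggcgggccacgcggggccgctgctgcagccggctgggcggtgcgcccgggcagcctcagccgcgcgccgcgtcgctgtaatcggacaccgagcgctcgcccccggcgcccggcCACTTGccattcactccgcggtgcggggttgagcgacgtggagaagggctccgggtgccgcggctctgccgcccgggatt
Sema3d: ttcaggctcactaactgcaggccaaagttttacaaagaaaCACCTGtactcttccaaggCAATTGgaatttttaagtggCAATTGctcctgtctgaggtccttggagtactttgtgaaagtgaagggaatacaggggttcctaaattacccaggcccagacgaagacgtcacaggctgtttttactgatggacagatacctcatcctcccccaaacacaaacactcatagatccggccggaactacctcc
Sema3e: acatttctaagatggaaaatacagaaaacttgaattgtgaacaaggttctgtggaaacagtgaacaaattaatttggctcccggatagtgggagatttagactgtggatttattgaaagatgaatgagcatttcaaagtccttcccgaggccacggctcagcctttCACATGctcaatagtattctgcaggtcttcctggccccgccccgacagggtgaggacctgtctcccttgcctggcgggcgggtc
The base composition of the 4 windows ran from 40.8% G and C in Sema3a to 78.4% in Sema3c. Searched on both strands, CANNTG stood once in the Sema3a window, at 2 places in Sema3c, at 3 in Sema3d and once in Sema3e, and 66.2% of the 32851 RefSeq mouse promoter windows of the same length hold it. TGTGGT stood in the Sema3a window only of these 4, and 14% of all windows hold it. GGAATG, the letters bound by TEAD factors, was in none of the 4 windows and in 12.6% of all. No CANNTG match overlapped a TGTGGT match, and a match describes letters, not a bound site. RefSeq start sites can differ from the gene spans given above. By those spans the Sema3a and Sema3c windows lie within the gene, and the Sema3d and Sema3e windows lie before it.

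Sema3c, a ligand best known from the outflow tract of the heart, had the smallest p of the family for unstimulated against naive bone at day 12. Its level was 56.1, 45.2 and 44.4 CPM in unstimulated bone at day 12, against 25.9, 18.6 and 13.7 CPM in naive bone. No unstimulated library overlapped the naive ones, and the log2 fold change was 1.36 ± 0.21 (SE, edgeR adjusted p = 0.00215), a 2.57-fold higher level. It was already 35.5 and 53.4 CPM in the 2 unstimulated bone libraries of day 5 (log2 fold change over naive 1.19 ± 0.23, adjusted p = 0.049), and this earlier call did not hold without naive sample 2, naive sample 3 or unstimulated sample 3 (adjusted p up to 0.462). Stimulated bone had 24.1, 29.9 and 26.1 CPM at day 5 and 29.3, 33.3 and 31.4 CPM at day 12, below every unstimulated library of the same day. That difference from unstimulated bone did not pass the test at day 5 (log2 fold change -0.69 ± 0.23, adjusted p = 0.536) or at day 12 (-0.67 ± 0.21, adjusted p = 0.213).

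In tendon Sema3c moved the other way. It stood at 51.2, 52.1 and 61.6 CPM in unstimulated tendon at day 12 and at 49.8, 54.2 and 46.4 CPM in stimulated tendon, against 97.5, 71.1 and 80.9 CPM in naive tendon. Neither 12-day group overlapped the naive one. The log2 fold change over naive was -0.62 ± 0.13 in unstimulated tendon (adjusted p = 0.0137) and -0.74 ± 0.13 in stimulated tendon (adjusted p = 0.00382). The fall in stimulated tendon held without each 1 of its libraries, whereas that in unstimulated tendon did not hold without naive sample 3 or unstimulated sample 2 (adjusted p up to 0.0725). Before treatment Sema3c was 4.28-fold higher in naive tendon than in naive bone (log2 fold change 2.10 ± 0.19, adjusted p = 1.65e-09).

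Sema3e, a ligand that binds Plxnd1 without a neuropilin, and Sema3a rose in unstimulated bone at day 12 as well. Sema3e had 10.8, 8.46 and 12.1 CPM in unstimulated bone at day 12, against 5.55, 4.33 and 5.41 CPM in naive bone (log2 fold change 1.07 ± 0.21, adjusted p = 0.00554). Sema3a had 13.5, 12.5 and 10.2 CPM there, against 6.17, 6.59 and 5.26 CPM in naive bone (log2 fold change 1.05 ± 0.25, adjusted p = 0.0129). For both genes the libraries of the groups were apart, the levels were 2.11-fold and 2.07-fold higher, and both calls held without each 1 of the 6 libraries. Stimulated bone at day 12 had 5.39, 6.11 and 3.55 CPM of Sema3e, on both sides of the naive range, and 11.4, 10.5 and 6.75 CPM of Sema3a. In tendon Sema3e stood at 4.96, 2.11 and 2.46 CPM in unstimulated and 1.803, 5.88 and 1.48 CPM in stimulated tissue at day 12, against 6.44, 6.47 and 7.77 CPM in naive tendon, and neither difference passed the test. Sema3a was higher in naive tendon, with 24.3, 11.3 and 17.1 CPM, than in naive bone (log2 fold change 1.55 ± 0.31, adjusted p = 0.000116).

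Sema3d and Sema3b completed the fall of class 3 ligands in tendon. Sema3d had 1.88, 1.94 and 3.67 CPM in unstimulated and 1.08, 2.59 and 2.66 CPM in stimulated tendon at day 12, against 12.0, 5.28 and 8.37 CPM in naive tendon. Its log2 fold change over naive was -1.78 ± 0.56 in unstimulated tendon (adjusted p = 0.0443) and -2.00 ± 0.57 in stimulated tendon (adjusted p = 0.0253). Both groups lay below all naive libraries, yet the first call did not hold without any 1 of 6 libraries of its groups (adjusted p up to 0.153), and the second not without naive sample 1 or 3 or stimulated sample 1 or 3 (adjusted p up to 0.0943) or without the filter. In bone Sema3d was higher than in tendon, with 21.1, 23.4 and 26.4 CPM in naive bone (naive tendon over naive bone -1.46 ± 0.39 on the log2 scale, adjusted p = 0.00203). Unstimulated bone at day 12 had 23.9, 21.9 and 22.8 CPM, within the naive range, and stimulated bone had 16.8, 15.3 and 12.9 CPM, below every naive and every unstimulated library. The log2 fold change of stimulated over naive bone was -0.65 ± 0.11 (adjusted p = 0.0126), a call that did not hold without naive sample 2 or naive sample 3 (adjusted p up to 0.0540) or with only the libraries compared.

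Sema3b, a relative of Sema3a whose gene lies on chromosome 9, had 24.4, 27.0 and 58.1 CPM in unstimulated tendon at day 12, against 97.0, 88.6 and 146 CPM in naive tendon. The groups were apart and the log2 fold change was -1.62 ± 0.49 (adjusted p = 0.0389), a call lost without each of 5 of the libraries, namely the 3 naive ones and unstimulated samples 1 and 2 (adjusted p up to 0.145). At day 5 it stood at 45.05, 33.5 and 54.2 CPM in stimulated and 32.7, 26.3 and 104 CPM in unstimulated tendon, and the highest of these is the sample rich in Schwann cell markers. Without that sample Sema3b passed the threshold in unstimulated and in stimulated tendon at day 5 against naive tendon. Naive bone had 50.2, 31.3 and 25.004 CPM, so that naive tendon was 3.11-fold higher (log2 fold change 1.64 ± 0.46, adjusted p = 0.00348). The other 2 members of the class, Sema3f, a Nrp2 ligand, and Sema3g, ranged from 17.6 to 39.7 CPM and from 15.1 to 33.9 CPM over the 15 tendon libraries, and passed the test in 0 comparisons.

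Tendon fibroblast markers were higher in bone and lower in tendon at day 12. In unstimulated tissue at day 12 Sema3c passed in these directions in both tissues. Sema3a and Sema3e passed in bone alone, and Sema3b and Sema3d in tendon alone. In stimulated bone at day 12 Sema3a and Sema3c lay above all naive libraries, Sema3e on both sides of the naive range and Sema3d below it. The summed level of the 10 tendon fibroblast markers, all detected in every group, was 5037 to 7377 CPM in unstimulated bone and 4238 to 5911 CPM in stimulated bone at day 12, against 2550 to 2849 CPM in naive bone. In tendon it was 1308 to 2313 CPM in unstimulated and 986 to 2921 CPM in stimulated tissue at day 12, against 3289 to 5517 CPM in naive tissue. Adipocyte markers (6 of 6 detected) summed to 1126 to 1454 CPM and pericyte and smooth muscle markers (7 of 7) to 418 to 721 CPM in unstimulated bone at day 12, against 493 to 1027 CPM and 288 to 394 CPM in naive bone. Cartilage markers summed to 4197 to 4988 CPM in unstimulated bone at day 12, against 5148 to 6423 CPM in naive bone, and osteoblast markers overlapped, at 3513 to 4452 CPM against 3789 to 5058 CPM. In tendon the cartilage markers, with Matn1 at 0, summed to 253 to 535 CPM in unstimulated tissue at day 12, against 772 to 1691 CPM in naive tissue. The 12 muscle fibre markers ran the other way in tendon, with 225899 to 253558 CPM in unstimulated tissue at day 12, against 119177 to 166851 CPM in naive tissue. The part of these cell types in the changes of Sema3a to Sema3e was not tested.

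**Figure D2:**
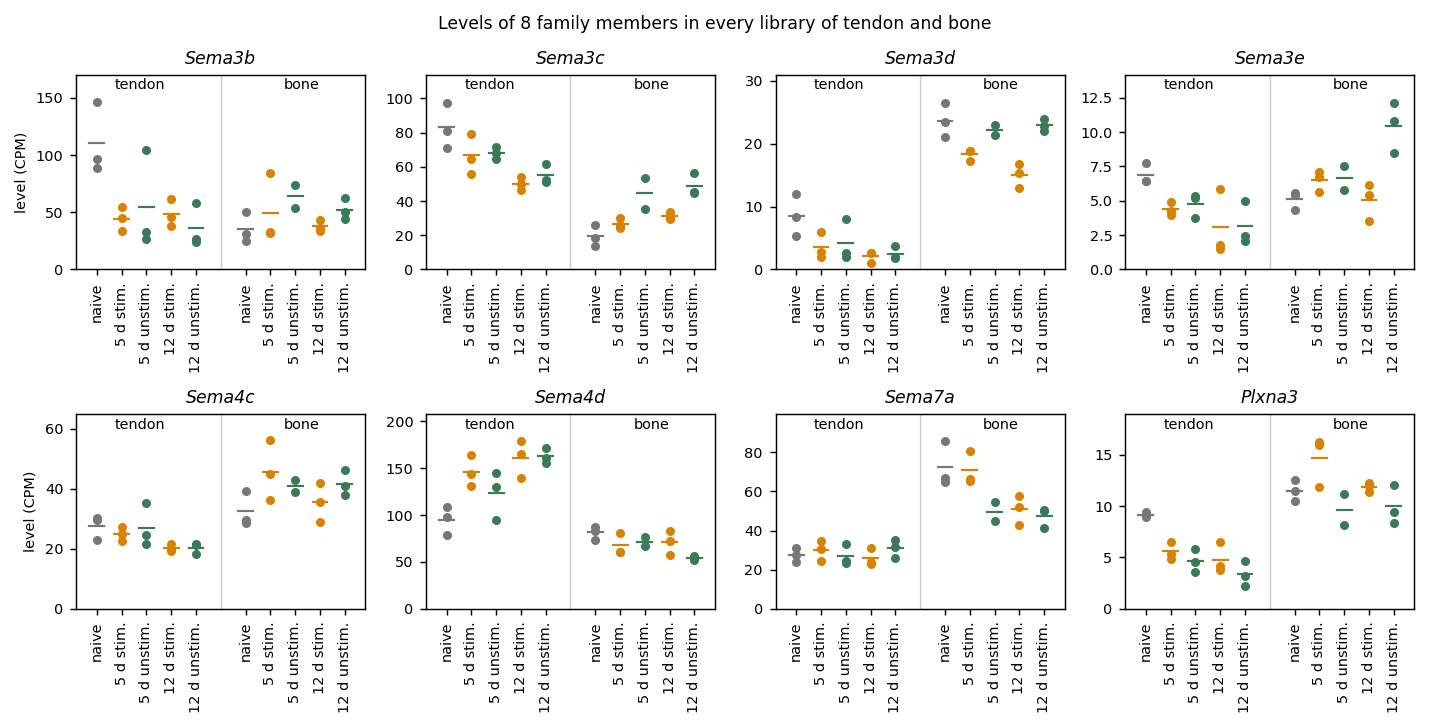
Level in CPM of Sema3b, Sema3c, Sema3d, Sema3e, Sema4c, Sema4d, Sema7a and Plxna3 in every library (points) with the group mean (bars), tendon on the left and bone on the right of each panel; grey is naive, orange stimulated and green unstimulated. In tendon Sema3c lies lower at day 12 than in naive tissue (the stimulated libraries at 46.4 to 54.2 CPM, below 71.1 CPM, the lowest naive one), and in bone the unstimulated libraries of day 12 (44.4 to 56.1 CPM) lie above all naive and stimulated ones.

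Among class 4 ligands, which are transmembrane proteins that bind B-type plexins in many tissues, Sema4d rose in tendon and fell in bone. In unstimulated tendon at day 12 it had 161, 172 and 155 CPM and in stimulated tendon 179, 139 and 165 CPM, against 108, 97.96 and 79.1 CPM in naive tendon. All libraries of both 12-day groups lay above all naive ones, with log2 fold changes of 0.76 ± 0.16 (adjusted p = 0.0125) and 0.75 ± 0.16 (adjusted p = 0.00684). The rise in stimulated tendon held without each 1 of its libraries, and that in unstimulated tendon did not without naive sample 3 or unstimulated sample 2 (adjusted p up to 0.0658). The 12 muscle fibre markers were also higher in both 12-day tendon groups. They summed to 225899 to 253558 CPM in unstimulated and 209291 to 252338 CPM in stimulated tissue, against 119177 to 166851 CPM in naive tissue. Their part in the rise of Sema4d was not tested. In bone Sema4d had 51.9, 56.7 and 54.1 CPM in unstimulated tissue at day 12, against 83.3, 87.7 and 73.4 CPM in naive tissue (log2 fold change -0.54 ± 0.13, adjusted p = 0.0126, and 0.0554 without naive sample 2). Stimulated bone at day 12 had 72.3, 57.5 and 83.5 CPM, above every unstimulated library, with a log2 fold change over unstimulated bone of 0.35 ± 0.13 that did not pass (adjusted p = 0.267). The gene spans chr13:51685529-51793747 on the minus strand (GRCm38), and no other annotated gene overlaps its exons.

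Sema4b and Sema4a, both transmembrane class 4 members of which Sema4a is known from immune cells, were bone-rich and fell there. Sema4b had 16.3, 23.4 and 19.4 CPM in unstimulated bone at day 12, against 29.3, 31.3 and 36.2 CPM in naive bone (log2 fold change -0.67 ± 0.14, adjusted p = 0.00757, held without each 1 of the 6 libraries). Sema4a had 18.8, 34.9 and 26.4 CPM, against 36.5, 64.1 and 43.2 CPM in naive bone (-0.80 ± 0.25, adjusted p = 0.0423), a call lost without naive sample 2 or 3 or unstimulated sample 1 or 3 (adjusted p up to 0.177), without the filter on low counts and with only the libraries compared. The unstimulated and naive libraries were apart for both genes. Naive tendon had 6.33, 6.31 and 6.35 CPM of Sema4b, 4.12, 4.06 and 3.89 CPM of Sema4a, and 0.573, 0.750 and 0.598 CPM of Sema4f, another transmembrane member, against 4.43, 4.11 and 3.40 CPM of Sema4f in naive bone. The log2 fold change of naive tendon over naive bone was -2.35 ± 0.15 for Sema4b (adjusted p = 2.19e-11), -3.57 ± 0.27 for Sema4a (1.4e-10) and -2.63 ± 0.22 for Sema4f (7.11e-10). Sema4c, a ligand of Plxnb2, did not pass within either tissue: it had 21.5, 18.1 and 21.2 CPM in unstimulated tendon at day 12, against 22.8, 29.4 and 30.1 CPM in naive tendon, and 37.8, 40.8 and 46.3 CPM in unstimulated bone, against 39.3, 28.6 and 29.7 CPM in naive bone. An antisense gene, D430040D24Rik, covers 7.27% of the Sema4c exons, and the strand setting of the counting is not given in the sources used here.

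Of classes 5 to 7, Sema7a, a membrane-anchored ligand of integrins and Plxnc1, fell in bone, and the low transcript Sema5b rose. Sema7a had 41.2, 50.1 and 50.7 CPM in unstimulated bone at day 12, against 66.7, 64.8 and 85.8 CPM in naive bone. The groups were apart (log2 fold change -0.57 ± 0.15, adjusted p = 0.0207, and up to 0.0847 without naive sample 3 or unstimulated sample 1). In tendon it had 25.9, 35.3 and 31.3 CPM in unstimulated tissue at day 12, against 24.0, 27.3 and 31.03 CPM in naive tissue, which overlap. Sema5b, a transmembrane member, had 1.19, 1.05 and 1.84 CPM in unstimulated bone at day 12, against 0.813, 0.259 and 0.348 CPM in naive bone (log2 fold change 1.501 ± 0.44, adjusted p = 0.0293), and the call was lost without naive sample 2 or 3 or unstimulated sample 1 or 3 (adjusted p up to 0.115) or with only the libraries compared. Sema5a, a transmembrane ligand of Plxnb3, was lower in naive tendon, with 10.5, 20.2 and 10.4 CPM, than in naive bone, with 41.3, 39.2 and 48.5 CPM (log2 fold change -1.65 ± 0.32, adjusted p = 9.16e-05).

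Of the 4 class 6 ligands, which bind A-type plexins, 3 differed between the naive tissues, where 68.4% of all genes did, and 0 passed the test in any comparison of day 5 or day 12. Sema6c had 194, 194 and 173 CPM in naive tendon, against 36.0, 22.3 and 6.53 CPM in naive bone, an 8.62-fold higher level (log2 fold change 3.11 ± 0.43, adjusted p = 1.6e-06). The groups were far apart, and within naive bone its level ordered as the summed muscle fibre markers did, 11917, 6854 and 110 CPM in the same libraries. Within stimulated tendon at day 5 or day 12 the orders differed, and within unstimulated tendon they were the same. The part of muscle in these values was not tested. Sema6a had 20.2, 18.2 and 20.8 CPM in naive tendon, against 11.05, 9.41 and 10.9 CPM in naive bone (0.92 ± 0.17, adjusted p = 4e-05). Sema6d was lower in naive tendon, with a log2 fold change of -0.46 ± 0.13 (adjusted p = 0.00446), and Sema6b did not differ past the threshold between naive tendon and naive bone (12.0 to 18.5 CPM and 13.5 to 14.5 CPM).

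Several lists of marrow cell markers, and the osteocyte list, were lower in unstimulated bone at day 12 than in naive bone. So were the members that fell there. The 10 neutrophil markers summed to 1482 to 2758 CPM in unstimulated and 2259 to 5375 CPM in stimulated bone at day 12, against 3333 to 7754 CPM in naive bone. The 10 markers of B and T cells summed to 109 to 217 CPM in unstimulated and 170 to 300 CPM in stimulated bone, against 261 to 291 CPM in naive bone. The 10 osteoclast markers summed to 2725 to 3445 CPM and 2613 to 4498 CPM in the same 12-day groups, against 4492 to 5826 CPM in naive bone. All markers of these 3 lists were detected in each of these groups. The erythroid markers, 8 of 9 detected, summed to 3046 to 6186 CPM in unstimulated and 4990 to 16656 CPM in stimulated bone, against 13945, 15098 and 40819 CPM in naive bone, where sample 3 stood apart. The 6 osteocyte markers, all detected, summed to 209 to 229 CPM in unstimulated and 191 to 293 CPM in stimulated bone. In naive bone they summed to 344 to 466 CPM. Macrophage markers (9 of 9 detected) were not lower: they summed to 596 to 821 CPM in unstimulated bone, against 551 to 668 CPM in naive bone. The part of these cells in the falls of Sema4a, Sema4b, Sema4d, Sema7a, Plxnc1 and Nrp2 was not tested. In naive tendon the neutrophil markers summed to 2.19 to 2.72 CPM, with Ly6g at 0.

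The plexins, the signalling receptors, that passed against naive tissue were Plxna3, Plxnb2 and Plxna1 in tendon and Plxnc1, Plxna2, Plxna4 and Plxnb1 in bone, each lower than in naive tissue. Plxna3, an A-type plexin for class 3 ligands, had 3.17, 2.21 and 4.66 CPM in unstimulated and 3.73, 4.12 and 6.48 CPM in stimulated tendon at day 12, against 8.98, 9.10 and 9.44 CPM in naive tendon. Both groups lay below the naive libraries, with log2 fold changes of -1.46 ± 0.26 (adjusted p = 0.00975, and 0.0612 without unstimulated sample 2) and -0.94 ± 0.26 (adjusted p = 0.0201, and up to 0.0801 without naive sample 3 or stimulated sample 1). At day 5 Plxna3 ranged from 3.61 to 5.80 CPM in unstimulated and from 4.87 to 6.49 CPM in stimulated tendon. Both day-5 groups also lay below all naive libraries, though neither difference passed by edgeR. Unstimulated bone at day 12 had 8.39, 9.44 and 12.1 CPM of Plxna3, against 11.5, 12.6 and 10.5 CPM in naive bone, which overlap. Plxnb2, a receptor for class 4 ligands, had 49.4, 36.5 and 45.5 CPM in unstimulated and 33.1, 46.5 and 56.8 CPM in stimulated tendon at day 12, against 67.0, 65.8 and 85.0 CPM in naive tendon. Its log2 fold changes were -0.74 ± 0.20 (adjusted p = 0.0241) and -0.68 ± 0.20 (adjusted p = 0.0255). Both calls were lost without naive sample 3, the first also without unstimulated sample 2 or 3 and the second without stimulated sample 1 (adjusted p up to 0.106 and 0.105), and the second also ended with only the libraries compared. Plxna1, a receptor for class 3 and class 6 ligands, had 52.3, 48.0 and 57.9 CPM in stimulated tendon at day 5, against 78.1, 69.1 and 70.9 CPM in naive tendon. It was the only member past the threshold there (log2 fold change -0.46 ± 0.11, adjusted p = 0.0417), and the call was lost without any naive sample or stimulated sample 1 or 2 (adjusted p up to 0.169). An antisense gene, Gm26811, covers 10.7% of its exons. Other markers were also lower in unstimulated tendon at day 12 than in naive tendon, at 72.7 to 101 CPM against 160 to 202 CPM for macrophages, 89.4 to 116 CPM against 138 to 258 CPM for osteoclasts, 401 to 421 CPM against 581 to 757 CPM for adipocytes and 35.6 to 42.1 CPM against 141 to 201 CPM for erythroid cells. Their part in the falls of Plxna3 and Plxnb2 was not tested.

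In bone Plxnc1, the receptor of Sema7a, had 3.85, 7.45 and 5.00 CPM in unstimulated tissue at day 12, against 9.28, 14.7 and 10.3 CPM in naive tissue (log2 fold change -1.02 ± 0.30, adjusted p = 0.0337). Plxna2, a receptor for class 6 ligands, had 27.9, 34.6 and 31.2 CPM in unstimulated and 30.5, 24.3 and 26.9 CPM in stimulated bone at day 12, against 41.4, 37.9 and 44.3 CPM in naive bone. No 12-day library of either gene's called groups reached a naive one. The Plxna2 log2 fold change over naive was -0.36 ± 0.11 in unstimulated (adjusted p = 0.0391) and -0.60 ± 0.11 in stimulated bone (adjusted p = 0.0161). Plxna4, another A-type plexin, had 10.05, 11.9 and 10.8 CPM in unstimulated bone at day 12, against 14.6, 14.8 and 15.1 CPM in naive bone (-0.40 ± 0.11, adjusted p = 0.0267). Plxnb1, the receptor of Sema4d, had 36.2, 36.3 and 31.2 CPM in stimulated bone at day 12, against 52.4, 49.0 and 48.2 CPM in naive bone (-0.53 ± 0.13, adjusted p = 0.0441). The libraries were apart for both. Of these calls, that of Plxnb1 was lost without any 1 of its 6 libraries (adjusted p up to 0.122), those of Plxnc1 and Plxna4 without naive sample 2 or 3 or unstimulated sample 1 or 3 (up to 0.136 and 0.0921), and those of Plxna2 without 5 libraries in unstimulated bone, all but unstimulated sample 2, and in stimulated bone without naive sample 3 or stimulated sample 2 (up to 0.136 and 0.0690). Without the filter on low counts the calls of Plxnc1, Plxna2 and Plxna4 in unstimulated bone ended, and with only the libraries compared those of Plxnc1, of Plxnb1 and of Plxna2 in both groups.

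Before treatment Plxnb1 and Plxnc1 were far lower in tendon. Plxnb1 had 5.24, 9.53 and 6.58 CPM in naive tendon (log2 fold change over naive bone -2.81 ± 0.32, adjusted p = 9.25e-08), and Plxnc1 had 1.23, 1.53 and 1.46 CPM (-3.02 ± 0.32, adjusted p = 2.27e-08). Plxnb2 was also lower in tendon (-0.998 ± 0.17, adjusted p = 2.53e-05), while Plxna1 to Plxna4, Plxnb3 and Plxnd1, the receptor of Sema3e, did not differ past the threshold. Plxnd1 ranged from 88.3 to 163 CPM over the 15 tendon libraries and from 116 to 189 CPM over the 14 bone libraries, and passed the test in 0 comparisons.

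The neuropilins, which hold class 3 ligands and also bind vascular endothelial growth factors, were split between the tissues. Nrp1 had 50.9, 55.4 and 64.2 CPM in naive tendon, against 21.6, 21.2 and 21.6 CPM in naive bone, and Nrp2 had 34.8, 36.4 and 52.5 CPM in naive tendon, against 203, 223 and 239 CPM in naive bone. The libraries of both genes were apart in opposite directions, with log2 fold changes of 1.40 ± 0.14 for Nrp1 (adjusted p = 6.89e-09) and -2.43 ± 0.17 for Nrp2 (adjusted p = 6.97e-11). Nrp2 was lower at day 12 in bone, with 152, 165 and 153 CPM in unstimulated and 173, 154 and 147 CPM in stimulated tissue, below all naive libraries. The log2 fold changes over naive were -0.46 ± 0.11 (adjusted p = 0.0121, held without each 1 of the 6 libraries) and -0.49 ± 0.11 (adjusted p = 0.0304, lost without naive sample 2 or 3 or stimulated sample 2 or 3, up to 0.118, and with only the libraries compared). At day 5 it was 224, 193 and 191 CPM in stimulated and 171 and 141 CPM in unstimulated bone, a log2 fold change of 0.41 ± 0.12 that did not pass (adjusted p = 0.517).

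For 8 members the 12-day change of unstimulated over naive tissue differed between tendon and bone, tested as tendon minus bone in 1 fit of all 29 libraries, where 16.0% of the 19845 genes passed. Class 3 gave 4 of them: Sema3c with -1.92 ± 0.26 on the log2 scale (adjusted p = 0.000209), Sema3e with -2.14 ± 0.49 (0.00539), Sema3b with -2.15 ± 0.65 (0.0267) and Sema3d with -1.72 ± 0.57 (0.0440). Sema4d had 1.36 ± 0.22 (adjusted p = 0.000566), Sema7a 0.78 ± 0.24 (0.0277), Sema4c -0.79 ± 0.25 (0.0333) and Plxna3 -1.24 ± 0.32 (0.0105). The differences of Sema3c, Sema3e, Sema4d and Plxna3 held without each 1 of the 12 libraries. Those of Sema3b, Sema4c and Sema7a were lost without each of 6 libraries and that of Sema3d without each of 10 (adjusted p up to 0.0743, 0.0909, 0.0870 and 0.120). Those of Sema3b, Sema3d and Sema7a also ended without the filter on low counts. The total was 4 without naive bone sample 3 or unstimulated tendon sample 2 and 5 without naive tendon sample 3, naive bone sample 2 or unstimulated bone sample 3. At day 5 the same test gave 0 members, where 0.0101% of genes passed. There were 6 members at an unadjusted p under 0.05, beside 1897 of 19845 genes. DESeq2 called Sema3c, beside 176 of 34663 genes. The edgeR test called Sema3c without naive bone sample 1 or the summed unstimulated bone library, and Sema3b and Sema3c without unstimulated tendon sample 3.

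**Figure D3:**
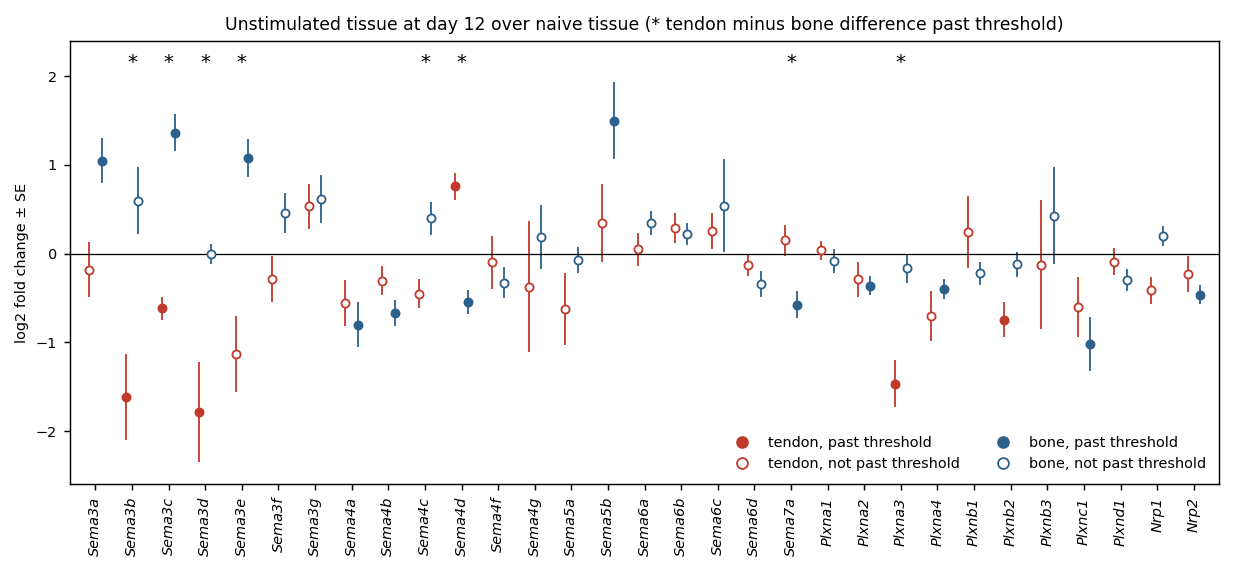
Log2 fold change (± SE) of unstimulated tissue at day 12 over naive tissue for the 31 members, in tendon (red) and bone (blue); filled points passed the test and open ones did not, and stars mark the 8 members whose change differed between the tissues. Sema3a, Sema3c and Sema3e lie above 0 in bone, where Sema3b, Sema3c and Sema3d lie below 0 in tendon.

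For stimulated against unstimulated tissue, the smallest p-values in bone at day 12 belonged to class 3 ligands. Sema3e had 5.39, 6.11 and 3.55 CPM in stimulated bone, against 10.8, 8.46 and 12.1 CPM in unstimulated bone, and Sema3d had 16.8, 15.3 and 12.9 CPM, against 23.9, 21.9 and 22.8 CPM. For both, every stimulated library lay below every unstimulated one, as for 5 of the 31 members in either direction (16.1% of all genes tested in bone). The log2 fold changes were -1.09 ± 0.21 (adjusted p = 0.0861) and -0.65 ± 0.11 (adjusted p = 0.0793). Both passed without a filter on low counts (adjusted p = 0.0480 and 0.0426) and by DESeq2 (0.000967 and 0.000462), and neither passed in any fit that left out a library (0.0577 to 0.328 and 0.0633 to 0.250). Plxnc1 had the largest positive value, 0.90, with overlapping libraries of 11.8, 7.05 and 12.8 CPM in stimulated and 3.85, 7.45 and 5.00 CPM in unstimulated bone (adjusted p = 0.235).

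In stimulated tendon at day 12 Plxna2 stood at 53.4, 35.7 and 69.9 CPM, against 27.7, 34.7 and 28.9 CPM in unstimulated tendon. The libraries were apart, as for 3 of the 31 members (14.8% of all genes), and the log2 fold change was 0.81 ± 0.19 (adjusted p = 0.0964). DESeq2 called it (adjusted p = 0.00975), and so did edgeR without stimulated sample 2, the lowest of its group (adjusted p = 0.00282), while the other fits that left out a library gave 0.0871 to 0.442. In the same stimulated libraries the 8 muscle progenitor markers summed to 331, 273 and 2402 CPM and the 12 Schwann cell markers to 715, 82.2 and 655 CPM, both lowest in sample 2, and against 280, 140 and 172 CPM and 96.8, 234 and 1090 CPM in the unstimulated ones. Their part in the Plxna2 values was not tested. Sema6c had 187, 189 and 131 CPM in stimulated and 217, 235 and 226 CPM in unstimulated tendon at day 12 (log2 fold change -0.41 ± 0.20, adjusted p = 0.470). In the same libraries the muscle fibre markers summed to 252338, 209291 and 227779 CPM and to 225899, 253558 and 232619 CPM. Plxna3, with a log2 fold change of 0.52, did not pass either (adjusted p = 0.513).

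At day 5 the smallest p-values in tendon belonged to Sema6c, Sema5a and Sema4g. Sema6c had 133, 172 and 103 CPM in stimulated tendon, against 231, 217 and 146 CPM in unstimulated tendon (log2 fold change -0.53, adjusted p = 0.502). The muscle fibre markers summed to 146300, 170013 and 155319 CPM in these stimulated libraries, against 230848, 203919 and 138064 CPM in the unstimulated ones. Sema5a had 8.26, 6.51 and 9.07 CPM, against 9.14, 11.4 and 28.7 CPM (-1.05 ± 0.40, adjusted p = 0.526). The libraries of Sema5a were apart, as for 2 of the 31 members (12.6% of all genes), and those of Sema6c overlapped. In bone at day 5 they belonged to Plxna3, with 16.2, 16.0 and 11.9 CPM in stimulated and 11.2 and 8.14 CPM in unstimulated tissue (0.64 ± 0.18, adjusted p = 0.513), and then Nrp2 and Sema7a. Sema7a had 80.7, 66.5 and 65.3 CPM in stimulated bone, against 54.6 and 44.9 CPM in unstimulated bone (0.54 ± 0.17, adjusted p = 0.529). Between the 3 stimulated and 2 unstimulated libraries 10 of the 31 members were apart, beside 28.7% of all genes.

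The effect of stimulation did not differ past the threshold between days or tissues for any member by edgeR. Between days 0 of 31 members passed in tendon and 0 in bone, where 0% of all genes passed in both, with 0 and 5 members at an unadjusted p under 0.05 and 0 by DESeq2. Between tissues 0 passed at day 5 (0% of all genes; 3 members at an unadjusted p under 0.05, 0 by DESeq2) and 0 at day 12 (0.222% of genes; 1 member at an unadjusted p under 0.05). DESeq2 called Plxna2 at day 12, and so did edgeR without stimulated tendon sample 2. Over all genes the 3 tests with 0% gave 699 of 17108, 2008 of 18851 and 1248 of 19845 genes at an unadjusted p under 0.05. DESeq2 called 12, 56 and 48 genes in them. Between tissues at day 12 there were 2160 of 19845 genes at an unadjusted p under 0.05, and DESeq2 called 219 of 34663.

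**Figure D4:**
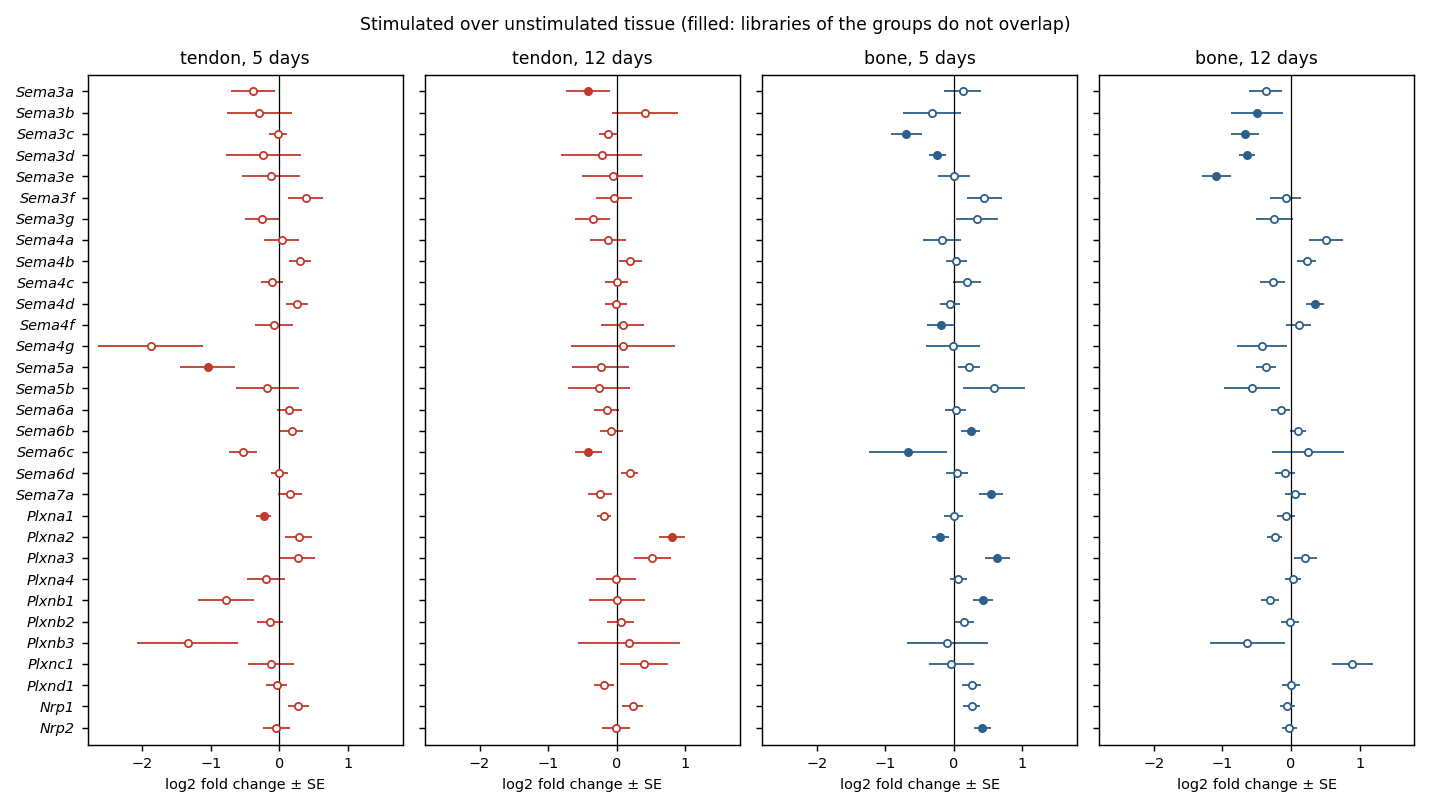
Log2 fold change (± SE) of stimulated over unstimulated tissue for the 31 members in tendon (red) and bone (blue) at days 5 and 12; filled points are members whose libraries do not overlap between the groups. No point passed the test, and in bone at day 12 Sema3e lies at -1.09 and Sema3d at -0.65.

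Plxnb3 and Sema4g stood high in the libraries that were rich in Schwann cell markers. Plxnb3, the receptor of Sema5a, had 1.31, 1.44 and 8.62 CPM in unstimulated tendon at day 5 and 1.17, 4.501 and 2.03 CPM in naive tendon. Sema4g, a transmembrane class 4 member, had 0.784, 0.963 and 6.50 CPM in unstimulated tendon at day 5 and 0.900, 3.66 and 1.16 CPM in naive tendon. In both groups 1 library stood above the other 2 for both genes, and it was the one in which the 12 Schwann cell markers summed to 3165 CPM (115 and 157 CPM in the others) and to 1293 CPM (148 and 141 CPM). Stimulated bone at day 5 gave the same picture, with 3.20, 10.6 and 1.89 CPM of Plxnb3 and 4.46, 10.5 and 3.91 CPM of Sema4g where the markers summed to 399, 2656 and 215 CPM. Sema5a, at 28.7 CPM in unstimulated tendon sample 3 of day 5, and Plxnb1, at 15.6 CPM, were highest of all tendon libraries in that sample. All 12 Schwann cell markers were detected in every group, and their part in these values was not tested.

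**Figure D5:**
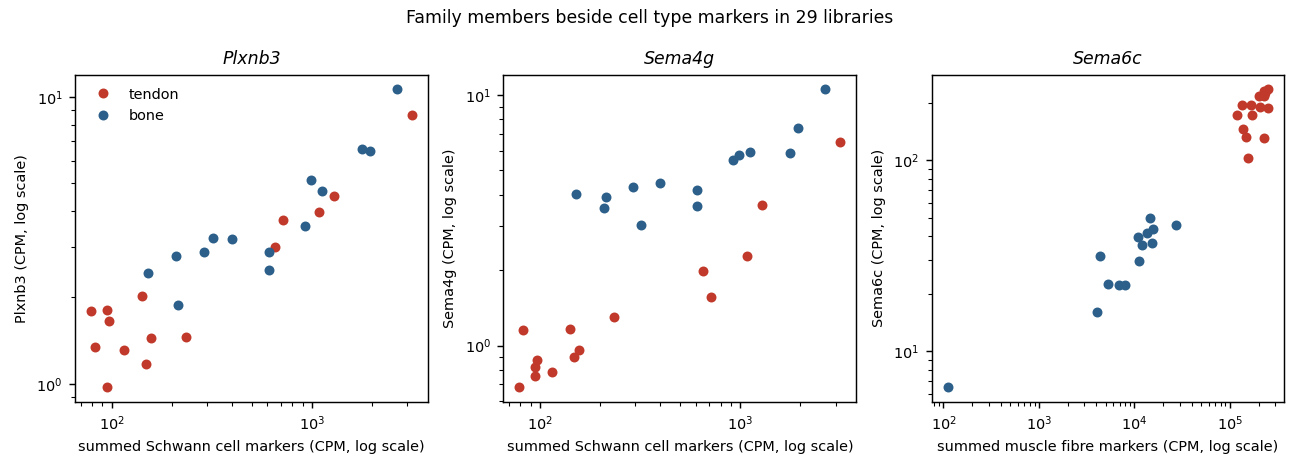
Level in CPM of Plxnb3 and Sema4g against the summed level of 12 Schwann cell markers, and of Sema6c against that of 12 muscle fibre markers, in the 15 tendon (red) and 14 bone (blue) libraries, all axes logarithmic. Plxnb3 reaches 8.62 and 10.6 CPM in the tendon and bone libraries richest in Schwann cell markers, and Sema6c is lowest, at 6.53 CPM, in the naive bone library with 110 CPM of muscle markers.

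Of 56 other genes of the pathway (co-receptors, other ligands of neuropilins and intracellular mediators), 54 were tested. In unstimulated tendon at day 12 against naive tendon, 1 rose and 15 fell (8.17% and 10.6% of all genes), among them Crmp1 and Dpysl3, mediators of the collapse response to Sema3a, with log2 fold changes of -2.95 ± 0.60 and -1.31 ± 0.28 (adjusted p = 0.0123 and 0.0137). Crmp1 was scarce, averaging 0.0930 CPM in unstimulated and 0.766 CPM in naive tendon. The list's median was -0.20, against -0.03 over all genes. In unstimulated bone at day 12, 8 rose and 4 fell (10.1% and 11.7% of all genes), among them Rras, a GTPase that plexins act on (0.83 ± 0.13, adjusted p = 0.00197), Dpysl2, a relative of Dpysl3 (1.05 ± 0.17, adjusted p = 0.00260), and Met, a receptor kinase that pairs with B-type plexins (0.73 ± 0.13, adjusted p = 0.00355). Dpysl2 averaged 34.3 CPM in unstimulated and 17.1 CPM in naive bone, and Dpysl3 averaged 28.2 CPM in unstimulated and 69.1 CPM in naive tendon.

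Against naive tissue at day 12, stimulated tendon had 5 of the 54 higher and 11 lower (24.4% of all genes passed), led by Dpysl3 (-1.58 ± 0.28, adjusted p = 0.00393), and stimulated bone 3 higher and 4 lower (4.54% of all genes passed), led by Ptk7, a kinase-like co-receptor (-0.52 ± 0.10, adjusted p = 0.0185). Stimulated tendon at day 5 had 1 higher, Ranbp9, and 1 lower, Dpysl3 (2.29% of all genes passed). The list had 0 in the other 3 comparisons of day 5 with naive tissue. There 0.0351% of all genes passed for unstimulated tendon, 0.435% for unstimulated bone and 0.228% for stimulated bone. Mical3, a member of the MICAL family of actin-oxidising enzymes downstream of plexins, was the 1 gene of the list past the threshold for stimulated against unstimulated tissue. It averaged 131 CPM in stimulated and 81.7 CPM in unstimulated tendon at day 12 (log2 fold change 0.69 ± 0.12, adjusted p = 0.0218). Of all genes, 0.345% passed in that comparison. In tendon at day 5 and bone at days 5 and 12, 0.0585%, 0% and 0.0371% passed. The day-12 effect of stimulation on Mical3 was larger in tendon than in bone by 0.83 ± 0.16 in log2 (adjusted p = 0.0229). So was that on Rnd2, a small GTPase (1.17 ± 0.23, adjusted p = 0.0304). Of all genes, 0.222% passed that test. Between naive tendon and naive bone 16 of the 54 were higher and 26 lower in tendon, beside 33.3% and 35.0% of all genes.

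The 12-day change of unstimulated over naive tissue differed between tendon and bone for 15 genes of the pathway list, 1 higher and 14 lower in tendon minus bone, of the 54 tested, where 16.0% of all genes passed. Dpysl2 (-1.66 ± 0.26, adjusted p = 0.000467), Rras (-0.77 ± 0.16, adjusted p = 0.00282), Trem2, a partner of Plxna1 on osteoclast precursors (-2.33 ± 0.54, adjusted p = 0.00546), and Dpysl3 (-1.18 ± 0.30, adjusted p = 0.0110) had the smallest p-values. As given above, tendon fibroblast markers at day 12 were lower in tendon and higher in bone than in naive tissue. Muscle fibre markers were higher in unstimulated tendon at day 12 than in naive tendon. The part of both in these values was not tested.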

How the data were processed

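RNA was extracted from Achilles tendon and calcaneus with a PureLink kit and made into poly-A libraries, per the labels' protocols. The authors deposited expected counts per gene. The submitters' processing notes name cutadapt 2.3, FastQC 0.11.8, MultiQC 1.7, STAR 2.7.8a, RSEM 1.3.3 and the build GRCm38. Not given in the sources used here were each tool's role, the annotation behind the counts and whether strand was used. The deposited expected counts were already whole (0 values were not), so no rounding was needed, and 0 sample columns were left unused. Without a strand setting, reads from a gene and its antisense partner cannot be told apart.

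Groups followed the labels, and samples titled as stimulated controls were taken as stimulated. Samples 1 and 2 of unstimulated bone at day 5 were summed. Each tissue was fitted on all its libraries with edgeR 4.0.16 in R 4.3.3 (a robust quasi-likelihood test after TMM scaling, on genes that passed filterByExpr at count 10 and total 15), and contrasts across tissues were fitted on all 29 libraries. P-values were adjusted by Benjamini-Hochberg over all genes of each of 19 contrasts, with a threshold of 0.05. Standard errors were taken as the log2 fold change over the root of its F statistic. CPM values use TMM scaling over the 29 libraries, and exon lengths and spans come from the GENCODE M21 annotation of GRCm38. Scripts were tested on simulated data.

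Members and lists were chosen with earlier results of these data known. Per-library values are given for members past the threshold between stimulated and unstimulated tissue or in an interaction, and for up to 8 members in each direction past it against naive tissue or between naive tissues. Where none passed between stimulated and unstimulated tissue, they are given for members among those with the smallest p. The 4 members highest per kb in each tissue are named for their level, and up to 4 genes of the pathway list per contrast by adjusted p. Alternatives were no filter, DESeq2 1.42.0, its size factors in edgeR, a replicate block, only the libraries compared, the summed pair kept apart, and each library left out. DESeq2 was run on all genes with a count, without the filter.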

Additional observations from a re-analysis of the deposited data

Results flagged for a closer look

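For 8 members the change of unstimulated tissue at day 12 over naive tissue differed between tendon and bone by a test of the difference itself (tendon minus bone, edgeR's quasi-likelihood test, adjusted over all genes). The log2 change in tendon minus that in bone was -1.92 for Sema3c, -2.14 for Sema3e, -2.15 for Sema3b and -1.72 for Sema3d. It was -1.24 for Plxna3, -0.79 for Sema4c, 1.36 for Sema4d and 0.78 for Sema7a. These are differences between changes, not between levels. Sema3e, Sema4c and Sema7a did not pass in tendon alone, and Plxna3, Sema3b, Sema3d and Sema4c did not pass in bone alone. Tendon fibroblast markers were lower in tendon and higher in bone at day 12 than in the naive tissue, and their part in these differences was not tested.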

How the results depend on the processing

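None of the 54 member calls past the threshold changed direction under the alternatives run. For stimulated against unstimulated tissue at day 12, Plxna2 in tendon and Sema3c, Sema3d and Sema3e in bone kept their direction as well. Calls of the pathway list, Mical3 and Rnd2 among them, are given for the main fit only. Over single members past the threshold, DESeq2 and its size factors in edgeR kept 54 of 54 calls each, whereas 11 of 54 were lost without the filter on low counts and 10 of 46 with only the libraries compared. DESeq2 gave other counts of members past the threshold for stimulated against unstimulated tendon and bone at day 12 (1 and 2, against 0 and 0), unstimulated tendon and bone at day 5 over naive (1 and 2, against 0 and 1), stimulated tendon at days 5 and 12 over naive (2 and 9, against 1 and 5), stimulated bone at days 5 and 12 over naive (5 and 7, against 0 and 4), the effect of stimulation in tendon minus bone at day 12 (1, against 0) and the change of unstimulated over naive tissue in tendon minus bone at day 5 (1, against 0). Over all genes DESeq2 called 367 of 30654 in tendon and 427 of 33291 in bone for stimulated against unstimulated tissue at day 12. Over naive tissue at day 5 it called 109 for unstimulated tendon and 522 for unstimulated bone. For stimulated over naive tissue it called 1054 and 4871 in tendon and 685 and 1933 in bone at days 5 and 12. In tendon minus bone it called 219 of 34663 for stimulation at day 12 and 176 for the change over naive at day 5. Without the filter, 2 members passed for stimulated against unstimulated bone at day 12, 0 for unstimulated over naive bone at day 5, 1 in tendon minus bone at day 5 and 5 in tendon minus bone at day 12 (against 8). With only the libraries compared, 13 passed for unstimulated tendon at day 12 over naive (against 6), 0 for unstimulated bone at day 5, 3 for stimulated tendon at day 5 and 0 for stimulated bone at day 12. With the summed pair kept as 2 libraries, 2 passed for unstimulated bone at day 5 over naive and 1 in tendon minus bone at day 5. The cause of these shifts was not tested. DESeq2 apart, the share of all genes called is not given for any alternative, here or below. Those counts of members can therefore not be set against a shift over all genes.

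Leaving out each library in turn gave 0 to 1 members for stimulated against unstimulated tendon at day 12 and 0 to 0 in the other 3 such comparisons. Over naive tissue it gave 0 to 1 and 0 to 8 for unstimulated tendon at days 5 and 12, 0 to 1 and 6 to 12 for unstimulated bone, 0 to 3 and 2 to 10 for stimulated tendon, and 0 to 0 and 0 to 4 for stimulated bone. It gave 17 to 18 between the naive tissues, 0 to 0 for the effect of stimulation between days in tendon and in bone, 0 to 0 and 0 to 1 for that effect between tissues at days 5 and 12, and 0 to 2 and 4 to 7 for the change over naive between tissues at days 5 and 12.

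Replicate numbers did not pair the samples in a steady way. Same-numbered samples correlated at -0.282 to 0.335 in tendon and -0.391 to 0.465 in bone. Among the 3 samples of another group, a sample correlated best with its own number in 27 of 60 comparisons in tendon and 15 of 60 in bone. The labels do not say whether same-numbered samples share an animal, so pairing stays possible. The main fits took the libraries as independent, also across tissues. With a replicate block, 5 members passed for stimulated tendon at day 5 over naive (against 1), 1 for stimulated bone at day 5 over naive (against 0) and 1 in tendon minus bone at day 5 (against 0), the bone fits with the pair kept apart, and no other count moved by over 1.5 times. Of the single calls, the block ended that of Sema3c in unstimulated bone at day 5 over naive and no other. Groups of 3, or 2 in unstimulated bone at day 5, limit what could be detected.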
